A study of Mus musculus with 2 samples.

Results

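Lymphatic and blood endothelial cells of wild-type (WT) mouse lymph nodes were compared in 4567 cells, of 10612 cell barcodes in the whole series. The cells came from peripheral and mesenteric nodes of mice labelled WT, all given tamoxifen, the compound that switches on inducible Cre recombinases. The series also holds matching Xbp1-KO pools, likewise given tamoxifen, which served here as a second set of 4 pool pairs. Each of 2 droplet libraries mixed 4 pools, 1 of each genotype and node type, told apart by antibody-borne oligonucleotide tags. The labels do not name the Cre line, the strain, age or number of the animals. Standard deviations (SD) below are the spread between pools, which may be technical in part between the 2 pools of a library. Node cells were depleted of CD45-positive blood cells with magnetic beads, and endothelial cells were then sorted, per the labels' protocols.

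The cells were selected on 7 measured transcripts. Summed UMIs (unique molecular identifiers, each marking 1 captured RNA molecule) of Prox1, Pdpn, Mmrn1 and Lyve1 gave a lymphatic sum, and those of Flt1, Ly6c1 and Cd34 a blood sum. A cell with a lymphatic sum of at least 2 that exceeded its blood sum was taken as lymphatic. A cell with a blood sum of at least 3 that exceeded its lymphatic sum, and with fewer than 20 UMIs of Glycam1, a product of high endothelial venules, was taken as blood. Of 4983 WT cells past the quality and tag filters, 1748 were lymphatic and 2819 blood. The 7 genes and Glycam1 were left out of the sums and of every test below, because they chose the cells. The other genes were not used by the gate, yet they were read in cells already divided by it; a difference therefore describes the 2 gated classes and is no test that the classes exist.

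Lymphatic vessels drain tissue fluid and leukocytes into the node, and their endothelium lines the node's sinuses, where it takes up antigen and particles and guides migrating cells with chemokines. Blood vessels feed the node through arterioles and capillaries and admit lymphocytes through high endothelial venules. The lymphatic state is known to depend on the transcription factor Prox1 and on VEGF-C acting through the receptor VEGFR-3, encoded by Flt4. Blood endothelium relies more on VEGF-A, Notch and SoxF factors, with BMP signals from the circulation acting through the receptor ALK1.

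The 4 WT pairs were unequal in size. In the order library 1 peripheral, library 1 mesenteric, library 2 peripheral and library 2 mesenteric, the pairs held 993, 445, 245 and 65 lymphatic cells and 1113, 1150, 263 and 293 blood cells. This order is used for all values given by pair. Lymphatic cells made up 47.2%, 27.9%, 48.2% and 18.2% of the gated cells, a smaller share in both mesenteric pools, although sorting and digestion can set such shares. The summed libraries held 426851 to 5512162 UMIs for lymphatic cells and 998395 to 3475723 for blood cells, the lowest for library 2 mesenteric lymphatic cells. In WT pools Ddx3y, on the Y chromosome, was at 66.0 to 113 CPM (UMIs scaled to a common library total) in library 1 and 0 to 3.02 in library 2, whereas Xist was at 12.9 to 43.8 and 506 to 1116 CPM, so pools of 1 label in the 2 libraries came from different animals, and library and sex cannot be told apart in WT. Both WT pools of a library showed the same pattern, so they may share animals and need not be independent. In Xbp1-KO pools the pattern between libraries was the reverse, with Ddx3y at 0 to 1.54 CPM in library 1 and 76.0 to 125 CPM in library 2.

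The gate was narrow at its edges. At a lymphatic sum of 2 there were 91 cells with a median of 3476 UMIs, and just outside, with a sum of 1 and no blood UMI, 72 cells with a median of 3349. At a blood sum of 3 there were 54 cells with a median of 1719 UMIs, and just outside, with a sum of 2 and no lymphatic UMI, 41 cells with 1544. No UMI of the blood genes was found in 82.6%, 82.7%, 89.8% and 83.1% of lymphatic cells, and none of the lymphatic genes in 88.9%, 90.0%, 96.6% and 95.9% of blood cells. Traces of the other class were thus more frequent among blood cells of library 1 than of library 2.

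Lymphatic cells yielded more UMIs. Their median UMIs per cell were 5683 ± 540 (SD, n = 4 pools), against 2845 ± 405 in blood cells, a ratio of 2.01 (range 1.92 to 2.12) that was above 1 in 4 of 4 pairs. The exact sign-flip permutation test (two-sided) gave p = 0.125, the smallest value that 4 pairs allow. In cells with at least 2000 UMIs, each thinned to 2000, the median number of detected genes was 1117 ± 29.4 in lymphatic cells. In blood cells it was 1060 ± 14.3, a ratio of lymphatic to blood of 1.05. Cells below 2000 UMIs were left out there, 323, 377, 46 and 40 blood cells and 18, 15, 7 and 0 lymphatic cells by pair. The share of mitochondrial UMIs was 2.26% ± 0.0948 and 2.46% ± 0.207. Because the sums were scaled to a common total, the fold changes below are relative, and the larger UMI yield of lymphatic cells does not appear in them.

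Of 8718 genes tested (a mean of at least 10 CPM over the 8 sums), 1984 were higher in lymphatic cells (22.8%) and 1716 higher in blood cells (19.7%) at an adjusted p under 0.05 in edgeR's quasi-likelihood test with each pair as a block. At least 2-fold differences numbered 957 in lymphatic cells (11%) and 713 in blood cells (8.18%). The groups' 4 values did not overlap for 3000 of the genes tested (34.4%). The median log2 fold change over all genes tested was 0.03, and the list counts below are to be read against these shares. Counts for a list are out of its members that were tested. Each standard error (SE) of a log2 fold change was derived from edgeR's F statistic, with variances estimated partly across genes. It is no direct spread of the 4 pairs. In the figures and text a positive log2 fold change means higher in lymphatic cells, and levels are CPM normalized by TMM, edgeR's scaling between sums. The 3′ assay gives no level per transcript length, so levels of different genes are not compared.

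The 15 leading lymphatic genes had log2 fold changes of 5.19 to 6.28. Nts, which encodes the peptide neurotensin and lies on the minus strand at chr10:102481756-102490486 (GRCm38), stood at 249, 404, 306 and 1407 CPM in lymphatic cells and at 11.9, 3.58, 0 and 0 CPM in blood cells (log2 fold change 6.28 ± 0.50 SE, adjusted p = 1.4e-07). Its levels did not overlap between classes, and the library 2 mesenteric lymphatic sum was far above the other 3. In that sum 25 of 65 cells held a Nts UMI, and 1 cell carried 54.7% of the Nts UMIs. Coch, which encodes the secreted protein cochlin and lies on the plus strand at chr12:51593341-51605771, was at 237, 249, 83.5 and 178 CPM against 2.20, 4.89, 1.07 and 0.996 CPM (6.21 ± 0.23, adjusted p = 3.2e-10). Coch did not exceed 4.89 CPM in any of the 4 blood sums. The chemokine gene Ccl20, ligand of CCR6, stood at 325, 392, 187 and 154 CPM against 15.4, 1.63, 0 and 0 CPM (5.74 ± 0.42).

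Several of the others act outside the cell. Mmp9 is a gelatinase and Adam33 a membrane-bound metalloprotease; their log2 fold changes were 5.61 ± 0.27 and 5.98 ± 0.29. Il33, the nuclear alarmin cytokine, was at 171, 297, 100.9 and 253 CPM in lymphatic and 6.28, 4.89, 1.07 and 2.99 CPM in blood cells (5.52 ± 0.23). Msr1 and Mrc1 encode the scavenger receptor SR-A and the mannose receptor and differed by 5.43 ± 0.23 and 5.395 ± 0.31. Reln (reelin), Sema3a (a repulsive guidance ligand), Flrt3 (an adhesion and guidance receptor), Clec4g (a C-type lectin), Cyp1b1 (a cytochrome P450 enzyme), Art2b (an ADP-ribosyltransferase) and AW551984 differed by 5.19 to 5.29. Lymphatic and blood values did not overlap for any of these 15 genes, against 34.4% of all genes tested. Their choice by the largest changes in the same sums made this likely, so it is no further support.

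The 15 leading blood genes had log2 fold changes of -5.95 to -6.60. Ly6a, the gene of the surface antigen Sca-1 at chr15:74994877-74998031 on the minus strand, stood at 40.8, 20.6, 16.7 and 2.34 CPM in lymphatic cells and at 2435, 2241, 2023 and 2077 CPM in blood cells (-6.60 ± 0.26, adjusted p = 5.7e-10). The chemokine gene Cxcl12, ligand of CXCR4, lies on the plus strand at chr6:117168535-117181367 and was at 67.4, 18.5, 15.4 and 4.68 CPM against 2865, 2771, 2016 and 2494 CPM (-6.56 ± 0.33). Sox17, a SoxF transcription factor of arterial endothelium at chr1:4490931-4497354 on the minus strand, was at 5.08, 1.68, 3.86 and 0 CPM against 200.3, 232, 351 and 476 CPM (-6.08 ± 0.27). The blood values of these 3 genes varied little beside the gap to the lymphatic ones, while their lymphatic values were lowest in the library 2 mesenteric sum.

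Others of this group belong to the matrix, to guidance and to metabolism. Sparcl1, a matricellular protein, and Esm1, the proteoglycan endocan known from sprouting tips, differed by -6.36 ± 0.31 and -6.21 ± 0.27. Nrp1, co-receptor for VEGF-A and class 3 semaphorins, and Sema3g, one such semaphorin, differed by -6.10 ± 0.26 and -6.06 ± 0.27. Thrsp, a regulator of lipid synthesis, Igfbp3, a carrier of insulin-like growth factors, Tbx3, a T-box factor, Rapgef4, a cAMP-responsive exchange factor for Rap, Rgcc, a cell-cycle and complement response gene, and Tmem255b, Exoc3l2 and C1qtnf9 completed the group at -5.95 to -6.41.

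**Figure D1:**
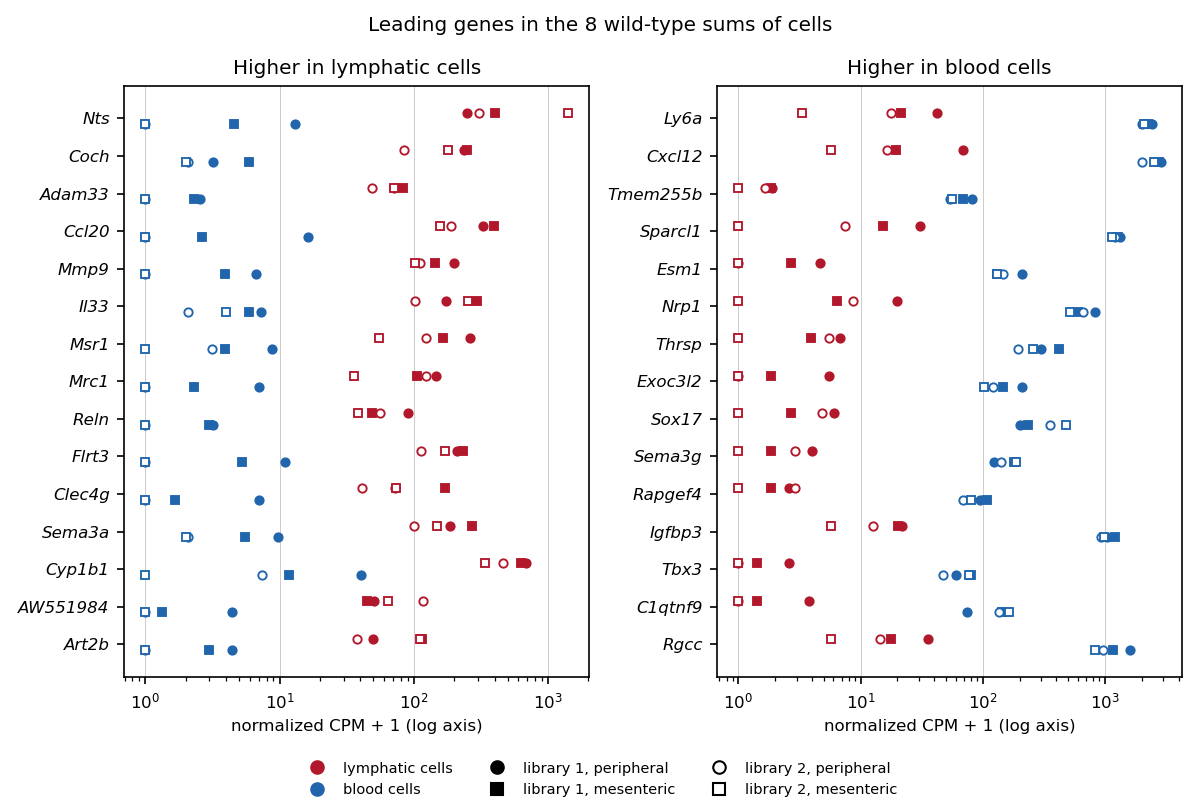
Normalized CPM + 1 on a log axis for the 15 leading genes of each direction in the 8 wild-type sums; each point is 1 sum of cells, red for lymphatic and blue for blood, with filled symbols for library 1, open for library 2, circles for peripheral and squares for mesenteric nodes. Red and blue points do not overlap for any of the 30 genes, which were chosen for the largest changes in these same sums. Library 1 sums of the lower class lie above those of library 2 in most rows.

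The size of the leading fold changes differed between libraries and gates. With library 1 left out, the 15 lymphatic genes had log2 fold changes of 6.23 to 12.74 and the 15 blood genes -5.48 to -10.14; with library 2 left out, the ranges were 4.54 to 6.07 and -5.53 to -6.46. For genes with no UMI in either remaining sum of the lower class, the fitted value depends on edgeR's prior count and is no bound. Requiring no UMI of the other class's gate genes, together with a lymphatic sum of at least 3 for lymphatic cells, gave 6.24 to 8.23 for the lymphatic genes and -6.63 to -8.97 for the blood genes. The part of free RNA and of mixed droplets in these traces was not tested. Glycam1, which the gate capped in blood cells alone, was at 961 to 5098 CPM in the lymphatic and 84.1 to 298 CPM in the blood sums.

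The genes differed in how many cells carried them. Shares were taken among cells with at least 2000 UMIs, each thinned to 2000. By pair this left out 323, 377, 46 and 40 blood cells but 18, 15, 7 and 0 lymphatic cells. The median over the 4 pools of the share of lymphatic cells with a UMI was 76.6% for Maf (4.0% in blood cells). For Nr2f2 it was 59.6% (7.0%) and for Cyp1b1 47.1% (1.5%). It was 28.5% for Il33, 16.1% for Nts, 9.8% for Coch, 7.5% for Ccl20 and 7.4% for Reln, each with a median of at most 0.7% in blood cells. Of the 15 leading lymphatic genes, Cyp1b1 had the highest median share at this depth, with a range of 35.4% to 53.5% over pools; without thinning its median was 61.0%. Blood genes reached higher shares: 90.3% of blood cells for Ly6a (2.9% of lymphatic cells), 84.0% for Cxcl12 (2.4%) and 80.9% for Sparcl1 (1.3%), but 15.6% for Esm1 (0.1%). Without thinning the medians were 88.6% for Maf in lymphatic cells and 95.9% for Ly6a in blood cells. The lower class's share may include free RNA as well as expression, and the part of each was not tested.

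**Figure D2:**
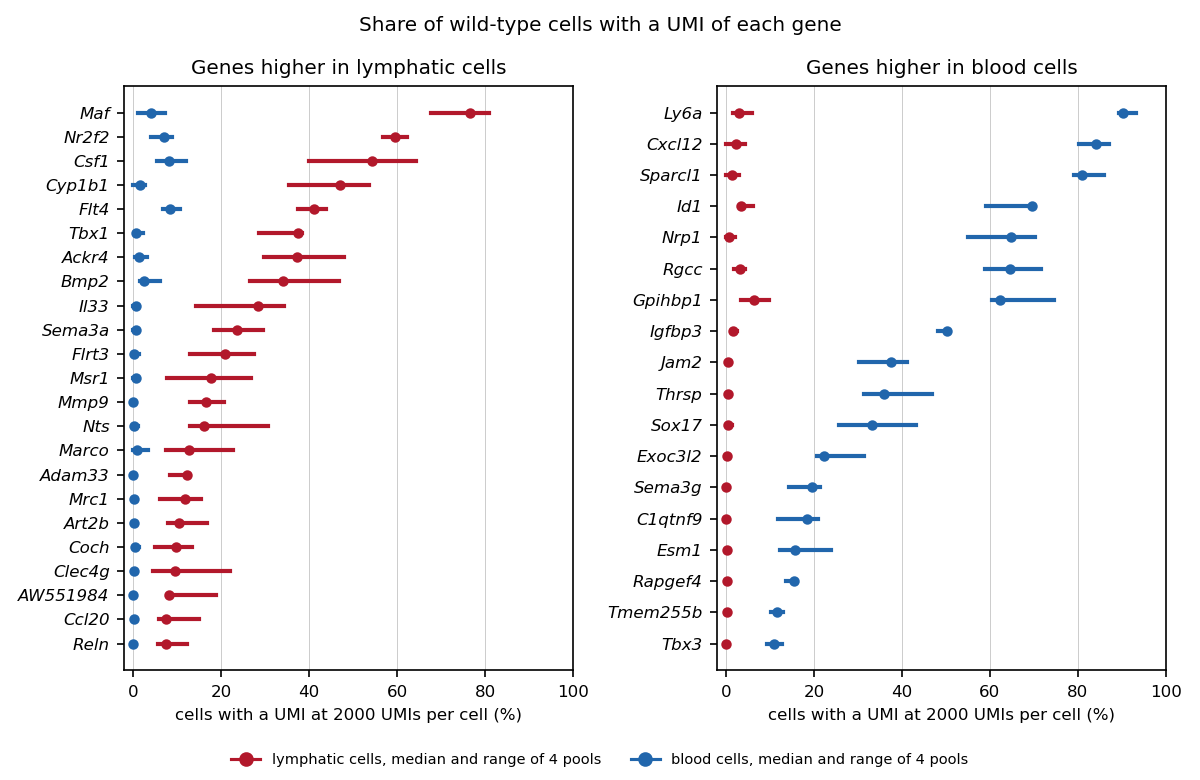
Percentage of wild-type cells with at least 1 UMI of each gene, among cells with at least 2000 UMIs, each thinned to 2000. Dots are medians and bars ranges over 4 pools, red for lymphatic and blue for blood cells. Maf and Nr2f2 reached medians of 76.6% and 59.6% of lymphatic cells, while the medians of Coch, Ccl20 and Reln stayed below 10%. In their highest pools Coch, Ccl20 and Reln reached 13.5%, 14.9% and 12.3%. Ly6a reached a median of 90.3% of blood cells.

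Promoter sequence is shown for 4 of the leading genes, because their windows hold a motif of factor families with members that differed between the classes. Windows of 7 leading genes hold such a motif, those of Cxcl12, Exoc3l2 and Rgcc being the others, and the 4 were picked after the search to show each motif and both sides. Each window runs from 250 bases before to 50 bases after the gene's start in RefSeq on GRCm38.p6. Capitals mark TGCTGA (a half-site of MAF factors), AACAAT (a SOX motif) and TGTTTA (a FOX motif), searched on both strands; none of the 3 overlapped another in these windows. Il33 lies on the plus strand of chromosome 19 (window chr19:29924863-29925162) and Cyp1b1 on the minus strand of chromosome 17 (chr17:79715012-79715311), both higher in lymphatic cells. Thrsp lies on the minus strand of chromosome 7 (chr7:97417501-97417800) and Esm1 on the plus strand of chromosome 13 (chr13:113209409-113209708), both higher in blood cells.
Il33: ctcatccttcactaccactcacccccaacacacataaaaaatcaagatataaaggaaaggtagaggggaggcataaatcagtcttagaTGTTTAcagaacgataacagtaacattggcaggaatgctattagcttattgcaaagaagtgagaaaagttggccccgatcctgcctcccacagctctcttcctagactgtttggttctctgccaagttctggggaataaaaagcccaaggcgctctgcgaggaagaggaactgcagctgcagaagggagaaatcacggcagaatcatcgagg
Cyp1b1: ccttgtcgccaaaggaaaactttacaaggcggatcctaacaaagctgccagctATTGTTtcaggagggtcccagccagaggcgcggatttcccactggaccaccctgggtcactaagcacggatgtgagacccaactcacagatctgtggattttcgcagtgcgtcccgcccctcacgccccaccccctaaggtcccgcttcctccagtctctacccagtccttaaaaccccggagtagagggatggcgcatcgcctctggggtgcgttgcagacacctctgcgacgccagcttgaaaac
Thrsp: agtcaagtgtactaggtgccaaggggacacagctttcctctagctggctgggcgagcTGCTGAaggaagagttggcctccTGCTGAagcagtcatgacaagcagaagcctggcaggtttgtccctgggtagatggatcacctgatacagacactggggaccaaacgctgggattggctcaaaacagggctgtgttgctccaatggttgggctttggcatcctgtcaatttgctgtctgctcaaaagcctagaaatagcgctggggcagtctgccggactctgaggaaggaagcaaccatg
Esm1: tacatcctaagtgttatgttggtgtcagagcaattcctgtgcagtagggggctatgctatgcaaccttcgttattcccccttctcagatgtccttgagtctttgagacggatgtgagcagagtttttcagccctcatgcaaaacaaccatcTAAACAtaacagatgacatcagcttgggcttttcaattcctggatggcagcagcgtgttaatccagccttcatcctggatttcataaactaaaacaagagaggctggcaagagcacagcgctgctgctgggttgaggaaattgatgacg

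RefSeq windows matched 12 of the 15 leading lymphatic genes, with 15 windows since some genes have several, and 11 of the 15 leading blood genes, with 11 windows. TGCTGA was found in 0 and 4 of these windows, AACAAT in 1 and 0, and TGTTTA in 2 and 1, both lymphatic ones being of Il33. RefSeq windows matched 741 of the 957 genes at least 2-fold higher in lymphatic cells and 544 of the 713 at least 2-fold higher in blood cells. TGCTGA occurred in 13.92% of the lymphatic windows, 17.17% of the blood windows, 13.91% of the windows of genes tested and 19.48% of all promoter windows. AACAAT occurred in 4.78%, 8.26%, 5.66% and 10.72% in the same order, and TGTTTA in 9.04%, 8.65%, 8.44% and 13.44%. These shares describe letters in a short window and say nothing of binding.

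Identity genes outside the gate followed their labels with exceptions. Of 15 lymphatic identity genes, 13 were higher in lymphatic cells and 0 in blood cells (median log2 fold change 3.80). The count in blood cells was 1 under some alternatives, among them library 2 left out, its mesenteric pair left out and edgeR's own expression filter. Of 15 blood identity genes, 0 were higher in lymphatic cells and 14 in blood cells (median -3.14). Flt4 was at 329, 291, 299 and 213 CPM in lymphatic cells and at 64.0, 54.1, 33.0 and 32.9 CPM in blood cells (2.60 ± 0.15, adjusted p = 6.4e-09). At 2000 UMIs 8.4% of blood cells held a Flt4 UMI, against 41.1% of lymphatic cells (medians of the pools). The part of free RNA in the blood share was not tested. Nrp2, the co-receptor of VEGFR-3, was at 213, 249.7, 182 and 145 CPM against 197, 192, 146 and 133 CPM (0.24 ± 0.12, adjusted p = 0.12), and its values overlapped between classes. Ccl21a, a CCR7 ligand, did not pass the test (-0.47 ± 0.19, adjusted p = 0.060), but it has near-identical gene copies and 2 identifiers under 1 symbol, so its count is uncertain.

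Cd36, the fatty acid translocase often used to mark capillaries, did not separate the classes: it was at 659, 684, 959 and 1081 CPM in lymphatic cells and at 494, 1231, 587 and 1056 CPM in blood cells (0.08 ± 0.20, adjusted p = 0.79). At 2000 UMIs, 45.7% of lymphatic and 44.6% of blood cells held a Cd36 UMI (medians of 4 pools). Flt4, Nrp2 and Cd36, like other list members given outside the 4 largest changes of a list, were chosen after their values were seen.

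Genes shared by endothelial cells at large were mostly lower in lymphatic cells. Of 15 such genes, 1 was higher in lymphatic cells and 13 in blood cells (median -0.88). Pecam1, which encodes the adhesion molecule CD31, was at 607, 513, 612 and 550.0 CPM in lymphatic and 1607, 1681, 1674 and 1785 CPM in blood cells (-1.56 ± 0.12). Esam, an adhesion molecule of tight junctions, differed by -3.92 ± 0.15. Cldn5, the principal claudin of endothelial tight junctions, went the other way at 1372, 1259, 2282 and 2574 CPM against 333, 306, 579 and 508 CPM (2.10 ± 0.12). Its values did not overlap between classes and were higher in library 2 than in library 1 in both. Erg, an ETS factor of endothelial identity, did not pass the test (0.21 ± 0.12, adjusted p = 0.18).

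**Figure D3:**
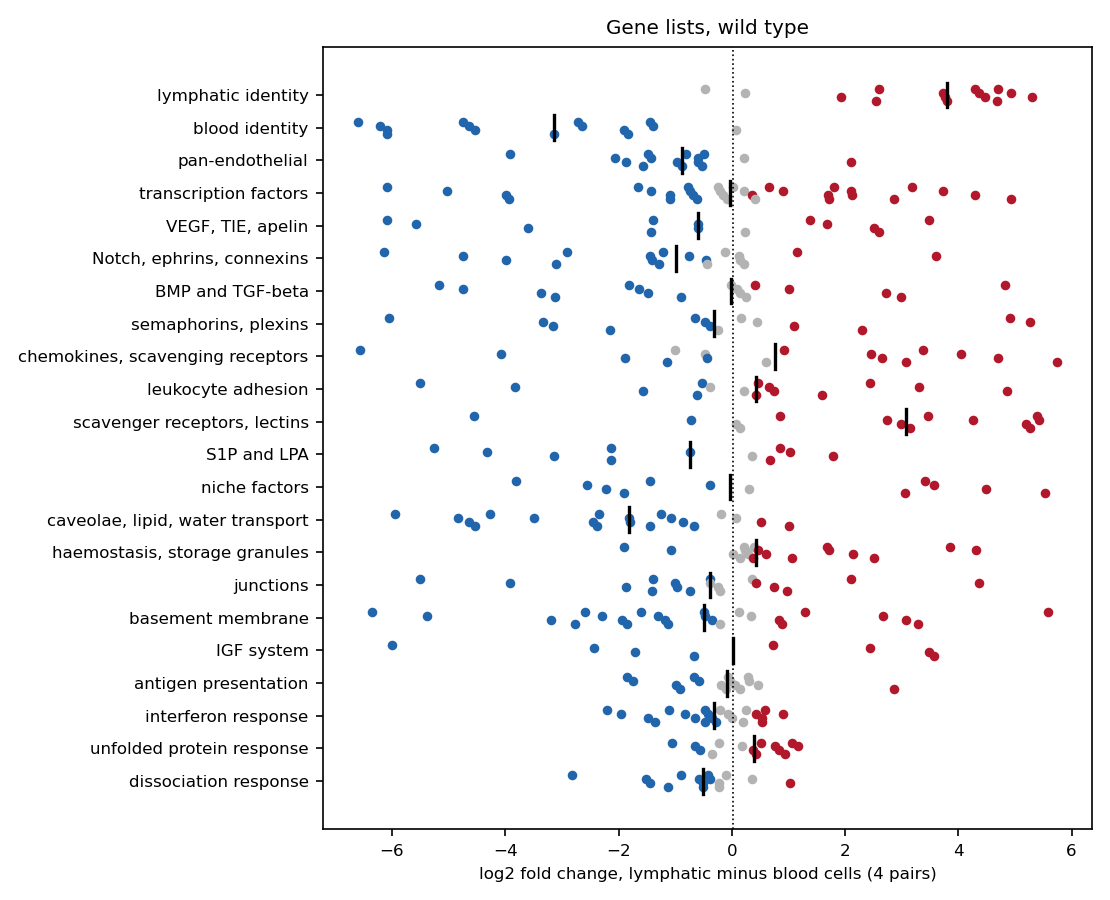
Log2 fold change of lymphatic minus blood cells (4 wild-type pairs) for each tested gene of 22 lists; red points passed the test as higher in lymphatic cells, blue as higher in blood cells, grey points did not pass, the black bar is the list's median and the dotted line the median of all genes tested. The lymphatic identity list has a median of 3.80 and the blood identity list one of -3.14, and most other lists hold members on both sides.

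Transcription factors divided nearly evenly: of 32 tested, 13 were higher in lymphatic cells and 12 in blood cells (median -0.03). Maf, a basic leucine zipper factor, was at 1263, 1256, 989 and 849.6 CPM against 99.8, 39.7, 12.8 and 7.97 CPM (4.94 ± 0.34). Tbx1, a T-box factor needed for lymphatic growth, Foxc2, a factor of lymphatic valves, and Nr2f2, the COUP-TFII partner of Prox1 that veins also express, differed by 4.29 ± 0.30, 3.73 ± 0.32 and 3.19 ± 0.15, with Tbx1 at 6.47 when library 1 was left out. In blood cells Tcf15, a factor of fatty-acid-handling capillaries, stood at 80.4, 286, 139.6 and 205 CPM against 4.90, 5.46, 1.29 and 4.68 CPM (-5.03 ± 0.27). The SoxF genes differed in degree: Sox17 by -6.08, Sox18 by -1.65 ± 0.12 and Sox7 by -0.78. Sox18, which switches on Prox1 in the embryo, was thus lower in lymphatic than in blood cells in these sums.

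VEGF ligand and receptor genes were found on both sides. Of 13 tested among 18 VEGF, TIE and apelin genes, 5 were higher in lymphatic cells and 7 in blood cells. Vegfa was at 67.3, 70.5, 58.5 and 63.2 CPM in lymphatic cells and at 6.91, 7.49, 2.13 and 2.99 CPM in blood cells (3.49 ± 0.22). Vegfc, the ligand of VEGFR-3, was low in both but reached 10.7, 21.8, 13.9 and 36.9 CPM in blood cells against 0.701, 2.94, 0 and 2.34 CPM (-3.59 ± 0.39, adjusted p = 3.4e-06). The gene of each ligand was therefore higher in the class opposite to the receptor gene it is best known for: Kdr, which encodes VEGFR-2, was higher in blood cells (-0.60 ± 0.12, adjusted p = 0.00076). The apelin receptor gene Aplnr differed by -5.58 ± 0.26, the angiopoietin receptor Tek by -1.42 ± 0.13 and its ligand Angpt2 by 1.69 ± 0.23.

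Genes of Notch, ephrin and connexin families were mostly higher in blood cells, 11 of 18 tested (20 listed) against 2 in lymphatic cells (median -0.98). Notch4 was at 117, 138, 121 and 119 CPM in blood and 5.78, 4.20, 1.29 and 7.02 CPM in lymphatic cells (-4.74 ± 0.23). The Notch target Hey1 and the arterial connexin Gja5 differed by -3.98 ± 0.22 and -6.15 ± 0.51, the latter on few UMIs. Notch2 went the other way at 58.0, 43.2, 76.5 and 67.9 CPM in lymphatic cells against 6.28, 1.30, 10.7 and 2.99 CPM (3.61 ± 0.26).

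Of the BMP and TGF-beta genes, 5 of 17 tested and 20 listed were higher in lymphatic cells and 8 in blood cells. Bmp2 was at 829, 995, 416 and 648 CPM in lymphatic cells and at 70.6, 20.8, 9.59 and 10.96 CPM in blood cells (4.82 ± 0.31), and Bmp4 differed by 2.73 ± 0.19. Id1, a direct target of BMP-activated SMADs, was at 27.3, 20.98, 25.1 and 74.9 CPM against 1143, 1238, 891 and 1129.7 CPM (-5.18 ± 0.24). Smad6 and Smad7, feedback inhibitors of the pathway, differed by -4.75 ± 0.36 (-7.91 with library 1 left out) and -3.38 ± 0.15, and Id3 by -3.11 ± 0.15. The receptor genes Acvrl1 (ALK1) and Eng (endoglin) were higher in blood cells too, by -1.81 and -1.49.

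Semaphorin genes differed by ligand: 4 of 14 tested (17 listed) were higher in lymphatic and 7 in blood cells, or 4 and 4 with library 1 left out. Sema3a and Sema3d differed by 5.26 ± 0.26 and 4.91 ± 0.40 (Sema3d by 7.72 with library 1 left out), whereas Sema3g, Sema6d and Sema3c differed by -6.06 ± 0.27, -3.33 ± 0.28 and -3.16. The receptor gene Nrp1 lay on the side of Sema3g, and Nrp2 on neither.

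Chemokine genes and atypical receptors, which bind chemokines without classical signalling, numbered 8 higher in lymphatic and 5 in blood cells of 16 tested and 18 listed (median 0.76). Ackr4, which removes CCL19 and CCL21 in the subcapsular sinus, was at 327, 395, 598 and 733 CPM in lymphatic cells and at 42.4, 8.80, 17.0 and 0.996 CPM in blood cells (4.71 ± 0.45). Ackr2, Cxcl10 and Cxcl16 differed by 4.05 ± 0.28, 3.38 ± 0.33 and 3.08 ± 0.16. On the blood side stood Cxcl12, Cx3cl1 (-4.08 ± 0.22) and Ackr1 (-1.89 ± 0.28), the Duffy receptor of venules.

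Scavenger receptors and lectins lay mainly on the lymphatic side, 10 of 14 tested and 19 listed against 2 (median 3.07), or 10 against 1 with library 1 left out. Marco, a class A scavenger receptor of medullary sinuses, was at 442, 1106, 245 and 899 CPM in lymphatic cells and at 42.7, 17.6, 2.13 and 2.99 CPM in blood cells (5.19 ± 0.46); its values were higher in both mesenteric lymphatic sums. Stab2 and Stab1, hyaluronan-binding and scavenger receptors, differed by 4.26 ± 0.23 and 2.99 ± 0.13. Scarb1, the receptor for high-density lipoprotein, lay on the blood side at 793, 706, 774 and 737 CPM against 43.3, 26.9, 29.6 and 23.4 CPM (-4.56 ± 0.16).

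Genes of leukocyte adhesion numbered 8 higher in lymphatic and 5 in blood cells of 15 tested and 18 listed (median 0.42), but 3 and 4 with library 1 left out and 5 and 5 without the library 1 peripheral pair. Vcam1, the integrin ligand, was at 608, 568, 443 and 421 CPM in lymphatic cells and at 68.7, 58.3, 27.7 and 53.8 CPM in blood cells (3.30 ± 0.16). Alcam differed by 4.87 ± 0.31. Jam2 and Cd200, an adhesion molecule and an inhibitory ligand for myeloid cells, differed by -5.50 ± 0.25 and -3.83 ± 0.26, with Jam2 at -9.10 under the stricter gate. Madcam1, an integrin ligand that also marks mucosal venules, was higher in lymphatic cells (2.44 ± 0.24), while cells with 20 or more Glycam1 UMIs had been kept out of the blood class.

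Factors that support other cells of the node were divided, 5 of 12 tested (18 listed) higher in lymphatic and 6 in blood cells. Csf1, the growth factor of macrophages, was at 799, 743, 574 and 454 CPM in lymphatic and 103, 66.5, 42.6 and 34.9 CPM in blood cells (3.41 ± 0.16). Igf1, Il7 and Wnt2 differed by 3.57 ± 0.22, 3.06 ± 0.25 and 4.49 ± 0.55 (Wnt2 by 8.03 with library 1 left out). Kitl, the stem cell factor, was at 107, 61.7, 86.1 and 32.8 CPM against 397, 472, 415 and 478 CPM (-2.55 ± 0.22), and Il15 and Pdgfd differed by -2.22 ± 0.20 and -3.80 ± 0.28. The survival cytokine Il7 and its relative Il15 thus lay on opposite sides.

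Among genes of sphingosine 1-phosphate (S1P) and lysophosphatidic acid, 4 of 11 tested (15 listed) were higher in lymphatic and 6 in blood cells, or 2 and 6 with library 1 left out and 1 and 6 with the sums thinned to the smallest. Spns2, the S1P exporter that lymphatic vessels use to let lymphocytes out, differed by 0.67 ± 0.16 (adjusted p = 0.0046). The S1P receptor S1pr1 differed by -0.73 ± 0.12. Larger differences lay on the lysophosphatidic acid side, with Lpar4 at -5.26 ± 0.29, the lipid phosphatase Plpp3 at -4.31 ± 0.16 and Enpp2, which makes the lipid, at -2.14 ± 0.14.

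Genes of caveolae, lipid and water transport were higher in blood cells for 16 of 20 tested and 21 listed, against 2 (median -1.81), or 15 against 1 with library 1 left out. Gpihbp1, which carries lipoprotein lipase across capillaries, was at 969.6, 1492, 1052 and 1039 CPM in blood and 45.5, 75.1, 27.0 and 58.5 CPM in lymphatic cells (-4.53 ± 0.18). The water channels Aqp1 and Aqp7 differed by -4.63 ± 0.16 and -4.83 ± 0.45 (Aqp7 by -7.79 under the stricter gate), and the fatty acid carrier Fabp4 by -2.38 ± 0.20. Cd36 and Lpl (-0.19 ± 0.32, adjusted p = 0.66) did not pass the test.

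Haemostasis genes lay more often on the lymphatic side, 10 of 18 tested (22 listed) against 2. F8, coagulation factor VIII, was at 780.2, 539, 582 and 316 CPM in lymphatic and 45.5, 21.8, 17.0 and 27.9 CPM in blood cells (4.31 ± 0.20). Its carrier in plasma, von Willebrand factor, went the other way: Vwf was at 7.53, 27.3, 2.57 and 115 CPM against 49.6, 123, 29.8 and 135 CPM (-1.91 ± 0.32), with overlap between classes. The lymphatic Vwf values were higher in both mesenteric sums. Procr, the protein C receptor, differed by 2.51 ± 0.20 and Thbd, thrombomodulin, by -1.07 ± 0.12.

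Matrix and junction genes followed no single side. Of 25 tested among 27 basement membrane genes, 7 were higher in lymphatic and 15 in blood cells (median -0.49). Col4a1, a chain of the principal collagen of basement membranes, was at 1586, 1903, 1602 and 1458 CPM in blood and 280.3, 289, 283 and 225 CPM in lymphatic cells (-2.60 ± 0.12), whereas Fn1, fibronectin, differed by 3.07 ± 0.23. Of 18 tested among 20 junction genes, 5 were higher in lymphatic and 9 in blood cells, or 3 and 6 with library 1 left out. Cldn11 differed by 4.37 ± 0.39, and by 10.80 with library 1 left out, where its blood sums held no UMI. The IGF system divided 4 to 4 of 8 tested (10 listed), with Igfbp5 at 3.48 ± 0.36 (6.06 when cells also needed a UMI of Pecam1 or Cdh5 and none of Ptprc, Pdgfra, Pdgfrb, Col1a1 and Col3a1, the purity filter) and Igfbp7, the abundant binding protein of blood vessels, at -2.44 ± 0.12.

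Of 22 interferon-response genes, 5 were higher in lymphatic cells, near the 22.8% of all genes, and 12 in blood cells (median -0.32). The counts were 1 and 7 with library 1 left out, 3 and 9 without its peripheral pair and 2 and 7 without its mesenteric pair. The list was led by Rsad2 (-2.20 ± 0.17) and Ifit3 (-1.96 ± 0.22). Of 16 tested among 18 antigen presentation genes, 1 was higher in lymphatic and 6 in blood cells (median -0.08), or 3 and 5 with library 2 left out. The class II gene H2-Aa was at 18.4, 14.3, 16.1 and 9.36 CPM in lymphatic and 51.2, 46.9, 56.5 and 79.7 CPM in blood cells (-1.75 ± 0.19), and the protease gene Ctss differed by 2.86 ± 0.21. Genes that tissue digestion is known to induce were higher in blood cells for 10 of 15 and in lymphatic cells for 1 (median -0.51), with 5 and 1 when library 1 was left out, 7 and 2 when library 2 was left out and 4 and 1 with no block for the pair. Their summed level was 24551, 14924, 26100 and 17094 CPM in lymphatic and 26909, 19936, 29267 and 26193 CPM in blood sums, higher in blood cells in 4 of 4 pairs, and its part in the immune differences was not tested.

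Xbp1, the factor deleted in the other pools of the series, was at 122, 109, 97.7 and 51.5 CPM in WT lymphatic cells and at 181, 233, 165 and 277 CPM in WT blood cells (-1.05 ± 0.20, adjusted p = 0.00072). Before TMM scaling it was at 51.8 to 127 CPM in lymphatic and 156 to 264 CPM in blood sums of WT, and at 51.1 to 54.8 and 91.7 to 147 CPM in Xbp1-KO pools; a 3′ tag need not lie in a deleted part. Of 14 tested among 15 unfolded protein response genes, 8 were higher in lymphatic and 3 in blood cells (median 0.39). With library 1 left out the counts were 3 and 2, without its peripheral pair 4 and 3, and with the sums thinned to the smallest 3 and 3. Creb3l2, a factor related to ATF6, was at 218, 185, 232 and 124 CPM against 109, 86.6, 88.4 and 76.7 CPM (1.07 ± 0.13), and the chaperone genes Hspa5 and Hsp90b1 differed by 0.83 ± 0.12 and 0.76 ± 0.11. Ern1, which encodes the sensor that splices Xbp1 RNA, differed by 1.16 ± 0.25 (adjusted p = 0.0018), but by 0.60 and no longer past the threshold with library 1 left out. Eif2ak3, the sensor PERK, differed by 0.94 ± 0.23 and by 0.65 without library 1, 0.79 without the library 1 peripheral pair and 0.45 with the sums thinned to the smallest, in each case short of the threshold.

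Markers of other cells were low with exceptions. Over 12 leukocyte markers the summed level was 385 to 535 CPM in lymphatic and 4.75 to 180 CPM in blood sums. In lymphatic cells most of it was Ltb, the gene of lymphotoxin beta (4084 UMIs in lymphatic and 175 in blood cells), while Ptprc, the CD45 gene, had 3 and 19 UMIs and Cd3e 0 and 11. Ltb was present in 40.4% of lymphatic cells at 2000 UMIs (median), against 2.3% of blood cells. Over 12 fibroblast and mural markers the sums were 164 to 258 CPM and 35.1 to 400 CPM, with Rgs5 higher in lymphatic cells (1.69 ± 0.17, or 2.94 with the purity filter), Lum at 0 UMIs in lymphatic cells and Col3a1 at 22.0, 72.6, 2.13 and 1.99 CPM in blood cells. Over 7 high endothelial markers other than Glycam1 they were 435 to 618 CPM and 885 to 1173 CPM. Most of this was Enpp2, at 266 CPM over all lymphatic and 856 CPM over all blood cells, with Madcam1 at 251 and 59.4 CPM. Fut7 was at 2.57 and 19.1 CPM and Chst4 at 0.822 and 0.454 CPM. The sums over 5 erythroid markers were 0 to 3.65 and 3.80 to 11.1 CPM, and over 6 markers of dividing cells 7.30 to 42.7 and 18.8 to 96.6 CPM.

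The lymphatic-blood difference itself differed between peripheral and mesenteric nodes for 59 of 8718 genes (0.677%) in the class by tissue term, which rests on 2 residual degrees of freedom. The term was positive for 28 and negative for 31, where positive means a larger lymphatic excess in peripheral nodes. Scgb3a1, a secretoglobin, was in blood cells at 23.9 and 7.46 CPM in the peripheral and at 332 and 183 CPM in the mesenteric sums, and at 0 to 2.98 CPM in lymphatic cells (term 4.70 ± 0.67, adjusted p = 0.00093). It was spread over many cells, with a UMI in 25.5% and 23.2% of mesenteric and 4.3% and 1.9% of peripheral blood cells. Fbln5, fibulin 5, moved in both classes: it was at 52.7 and 65.5 CPM in peripheral and 12.6 and 16.4 CPM in mesenteric lymphatic cells, and at 66.5 and 76.7 against 107 and 152 CPM in blood cells (term 2.82 ± 0.30). Rassf9 was at 28.2 and 36.2 CPM in peripheral but 136 and 154 CPM in mesenteric blood cells, with lymphatic values of 119 to 149 CPM (term 2.06 ± 0.24). Lepr, the leptin receptor, was at 114 and 90.0 CPM in peripheral and 34.8 and 14.0 CPM in mesenteric lymphatic cells (term 1.96 ± 0.36).

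Among members of the lists, 5 of 16 chemokine, 3 of 15 leukocyte adhesion, 3 of 18 haemostasis and 2 of 14 scavenger and lectin genes had a called term. So did 2 of 25 basement membrane genes, 2 of 15 genes that digestion induces and 2 of 4 fibroblast and mural markers. The share over all genes tested was 0.677%, and the other lists had at most 1 called term each. Marco, Bmp2 and Cxcl10 were chosen after their values were seen. The log2 fold change of Marco was 3.83 in peripheral and 6.36 in mesenteric pairs (term -2.53 ± 0.49, adjusted p = 0.015), that of Bmp2 3.97 and 5.65 (-1.68 ± 0.36, adjusted p = 0.030) and that of Cxcl10 2.52 and 4.49 (-1.97 ± 0.30, adjusted p = 0.0014). Ccl20 and Clec4g had terms of -3.29 ± 0.71 and -4.23 ± 0.85, but blood values of both were 0 in library 2, and without the library 1 peripheral pair the terms turned to 3.18 and 0.95. Dcn, a fibroblast gene, had a term of 3.64 ± 0.60 that turned to -1.93 without the library 1 mesenteric pair, in whose blood sum 5 cells carried 98.2% of its UMIs. For Marco, Plac8, Hist1h2ap and Mgp 1 cell also carried much of a sum: 48.5% of Marco UMIs in library 1 peripheral blood cells, 90.4% of Plac8 UMIs in library 1 peripheral blood cells, 85.4% of Hist1h2ap UMIs in library 2 peripheral blood cells and 55.6% of Mgp UMIs in library 1 mesenteric lymphatic cells. With no block for the pair, 0 genes passed, and 17 passed in DESeq2. Of the 10 named terms, 6 (Dcn, Lepr, Mgp, Plac8, Clec4g and Ccl20) lost the call in DESeq2, and 4 (Scgb3a1, Lepr, Clec4g and Ccl20) with the sums thinned to the smallest, where that of Scgb3a1 was 1.36. In the paired fit 833 genes had an unadjusted p under 0.05.

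**Figure D4:**
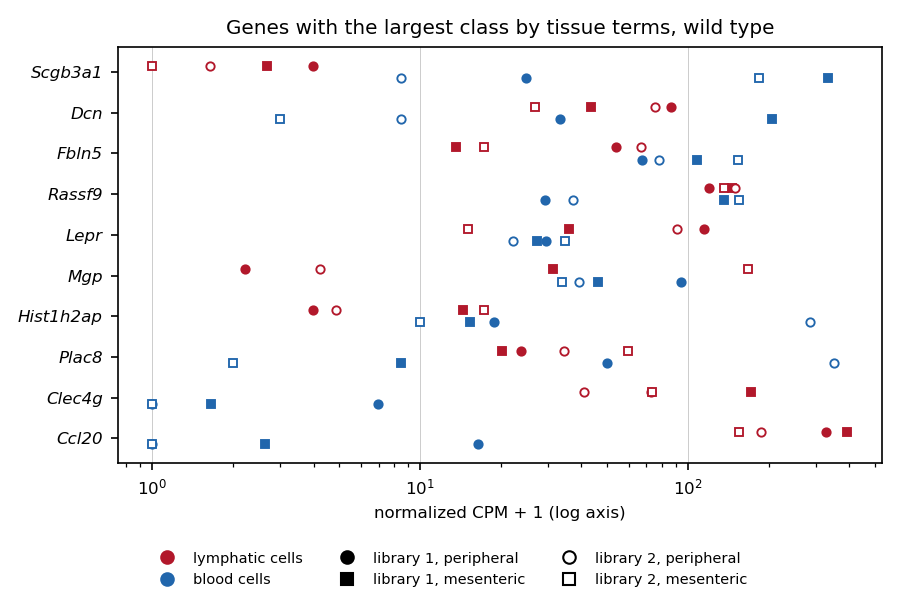
Normalized CPM + 1 on a log axis for the 10 genes with the largest called class by tissue terms, 5 in each direction; red points are lymphatic and blue points blood sums, filled for library 1 and open for library 2, circles for peripheral and squares for mesenteric nodes. Scgb3a1 and Rassf9 have higher blood values in both mesenteric sums, whereas Plac8 and Hist1h2ap are highest in the library 2 peripheral blood sum, at 349.5 and 285 CPM.

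The 4 Xbp1-KO pairs, gated by the same rule, held 2031 lymphatic and 2441 blood cells of 4936. There 2212 of 8725 genes were higher in lymphatic cells (25.4%) and 2185 in blood cells (25%). Of the 1984 genes higher in WT lymphatic cells, 1740 were so in Xbp1-KO pools, which is 87.7% of the WT list and 78.7% of the Xbp1-KO list; of the 1716 higher in WT blood cells, 1553 were so, 90.5% and 71.1% of the lists. No gene was called in opposite directions. The 2 genotypes share no pools, but share the 2 libraries and the gate.

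Among the 30 leading genes the log2 fold changes of both genotypes differed by at most 1.38, for Nts with 6.28 ± 0.50 in WT and 4.91 ± 0.31 in Xbp1-KO pools. Cxcl12 was at -6.56 ± 0.33 and -5.30 ± 0.48, Maf at 4.94 ± 0.34 and 4.81 ± 0.21, and Cldn5 at 2.10 ± 0.12 and 1.80 ± 0.13. The class by genotype term, tested over 8724 genes in the 16 sums of both genotypes, was past the threshold for 1 gene (0.0115%), with 231 at an unadjusted p under 0.05. That gene, Hbb-bs, a haemoglobin chain chosen here after its value was seen, was at 133 and 2181 CPM in the library 1 blood sums of Xbp1-KO pools and at 0 to 4.87 CPM in WT sums. Erythroid markers there summed to 154 and 2990 CPM. DESeq2 called 0 genes for this term. A gene that missed the threshold is not thereby shown to be alike in both genotypes.

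**Figure D5:**
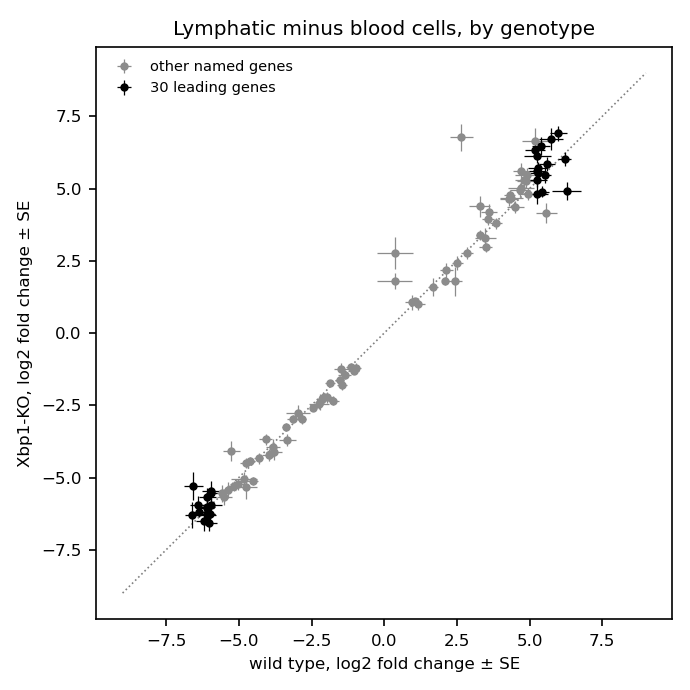
Log2 fold change of lymphatic minus blood cells in wild type (x axis) and Xbp1-KO pools (y axis), with SE bars, for the 30 leading genes (black) and the list members named by rule (grey); the dotted line marks equal values. The 99 genes drawn have the same sign in both genotypes, and the grey points farthest above the line are the marker genes Dcn (0.37 and 2.76), Coro1a (0.36 and 1.80) and Ccl19 (2.65 and 6.77). With 1 library left out the wild-type values of Dcn ran from -0.48 to 3.36 and those of Coro1a from -1.49 to 1.56. Over the alternatives Ccl19, which has more than 1 identifier under its symbol and is uncertain, ran from 1.91 to 3.98.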

How the data were processed

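The deposited values are raw UMI counts per gene and barcode, made by the authors: the file headers give Cell Ranger 6.0.1, and the submitters' processing notes give version 6.1 and mm10. The labels name kit v2 in one place and version 3 chemistry in another. Of 32285 gene identifiers, 99.6% were found in GENCODE M21. Cells needed at least 500 genes, at most 10% mitochondrial UMIs and a leading tag of at least 10 UMIs and 3 times the next, which left 7177 of 7626 and 2742 of 2844 barcodes of good quality; 449 and 72 were below the tag ratio. Scrublet, in scanpy 1.11.5, marked 229 and 5 barcodes, which were kept except in an alternative. The libraries shared 3 barcode sequences. Counts were summed per pool and class and tested in edgeR 4.0.16 (R 4.3.3) with TMM scaling, quasi-likelihood tests, the pair as a block and Benjamini-Hochberg adjustment; DESeq2 1.42.0 was an alternative. Pairing comes from the tag and library that both classes of a pool share (correlations of deviations 0.224, 0.269, 0.130 and 0.122). In simulated counts over 8560 genes the test recovered 93.9% of 2-fold and 100% of 4-fold changes, and 5.85% of its calls were false. Deposited counts were used unnormalized. Named genes were the 15 largest changes per direction with an adjusted p under 0.05, 4 of 4 pairs and at least 50 CPM, the 4 largest of each of 27 lists and the 5 largest terms per direction. Members, lists and tests were chosen with earlier results of these data known.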

Additional observations from a re-analysis of the deposited data

Results flagged for a closer look

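Nts had 1 lymphatic value far from the other 3: 1406.59 CPM in the library 2 mesenteric sum of 65 cells, by Dixon's test at its 95% critical value. It was 1 of 31 sets of 4 values examined, and chance marks about 1 in 20. In that sum 5 cells carried 83.9% of the Nts UMIs.

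The other results were marked because the lymphatic-blood difference itself differed between peripheral and mesenteric nodes in the class by tissue term (log2, peripheral minus mesenteric). The terms were 4.70 for Scgb3a1, 3.64 for Dcn, 2.82 for Fbln5, 2.06 for Rassf9 and 1.96 for Lepr. They were -6.09 for Mgp, -4.50 for Hist1h2ap, -4.42 for Plac8, -4.23 for Clec4g and -3.29 for Ccl20. In the WT lymphatic sums of the mesenteric nodes Mgp UMIs were found in 9 of 445 cells of library 1 and 3 of 65 cells of library 2. Fibroblast and mural markers summed to 400 CPM in the library 1 mesenteric blood sum, where Dcn was highest. Markers of dividing cells summed to 96.6 CPM in the library 2 peripheral blood sum, where Hist1h2ap was highest. Plac8 was highest in the same sum, where leukocyte markers summed to 180 CPM, against 4.75 to 71.2 CPM in the other WT blood sums. The part of these markers in the terms was not tested.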

How the results depend on the processing

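Counts of genes higher in WT cells stayed within 1.5 times the main values of 1984 (lymphatic) and 1716 (blood) under most alternatives. With library 1 left out they were 1036 and 949, and with every sum thinned to the smallest the lymphatic count was 1286; without single pairs they ranged from 1431 to 1901 and from 1245 to 1927. In Xbp1-KO pools 1382 genes were higher in blood cells with library 1 left out. The class by tissue count of 59 became 0 with no replicate block, 17 in DESeq2, 158 with no filter, 33 with the gate on thinned counts, 91 with the endothelial purity filter, 30 with thinned sums and 99 to 137 without single pairs; this term could not be fitted with a library left out. The class by genotype count of 1 became 38 with no filter and 0 with no replicate block, in DESeq2, with edgeR's own expression filter, with library 1 left out and with thinned sums. Tissue terms that changed sign were Dcn (-1.93 without the library 1 mesenteric pair, -0.89 with the purity filter), Plac8 (0.47 with the gate on thinned counts), Clec4g (0.95) and Ccl20 (3.18), the last 2 without the library 1 peripheral pair. Without single pairs the Dcn class by tissue term ranged from -1.93 to 5.13, the Clec4g class by tissue term from -6.51 to 0.95 and the Ccl20 class by tissue term from -6.69 to 3.18. The cause was not tested for any of these. Among named genes called in WT, Ern1, Eif2ak3, Col3a1 and Cd52 lost the call under at least 1 alternative. The number of animals behind a pool is unknown, and the library 2 mesenteric pool held 65 lymphatic cells.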

Other observations

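Several list members not described above had fold changes that differed in size between WT and Xbp1-KO pools; they were chosen after their values were seen, and none passed the class by genotype test (adjusted p = 0.9999 for each). Thy1, a surface glycoprotein that lymphatic endothelium shares with fibroblasts and T cells, was at 119, 117, 154 and 164 CPM in WT lymphatic and 7.53, 3.91, 5.33 and 0 CPM in WT blood cells, with log2 fold changes of 4.71 ± 0.28 in WT and 5.61 ± 0.26 in Xbp1-KO pools. Ccl2, a monocyte chemokine, had 2.46 ± 0.28 and 4.02 ± 0.21.

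Car4, a carbonic anhydrase of capillary endothelium, was at 98.6, 197, 119 and 183 CPM in WT blood cells and at 4.20, 2.10, 1.29 and 65.5 CPM in WT lymphatic cells. Its lymphatic value was high in the library 2 mesenteric sum alone. The log2 fold change was -4.27 ± 0.49 in WT and -5.43 ± 0.16 in Xbp1-KO pools.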
